A study of Mus musculus with 24 samples.

Results

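Endotoxin tolerance was examined in wild-type (WT) bone marrow-derived macrophages (BMDMs) as the difference between their responses to a second and to a first dose of lipopolysaccharide (LPS). The members were the 6 libraries labelled WT with the treatment 24h_LPS/3h_LPS (3 cultures) or Mock/3h_LPS (3 cultures), of 24 libraries in the series, and all genes were compared. In the first group cells received 100 ng/ml LPS for 24 h, the medium was changed, and after 1 h of rest they were given LPS again for 3 h (LPS 24h->LPS 3h, tolerized, here second LPS). In the other group cells went through the same steps without the early dose, so that the 3 h exposure was their first (LPS 3h, non-tolerized, here first LPS). BMDMs were grown for 7 days with 20 ng/mL M-CSF from the marrow of C57BL/6N mice aged 8 to 20 weeks, as were those of all other groups. The series also holds WT cells left unstimulated (Unstim.) or harvested directly after 24 h of LPS (LPS 24h), and the same 4 treatments of *Irg1*-/- cells, which lack the enzyme that makes itaconate. Each group had 3 cultures, given as independent by the study's methods.

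LPS binds TLR4 with its co-receptors CD14 and MD-2 and signals through the adaptors MyD88 and TRIF to NF-kappaB, MAP kinases and interferon regulatory factors. The interferon-beta made through TRIF acts back on the cells and induces a further set of genes through the type I interferon receptor. Macrophages that have met LPS respond differently to the next dose: many cytokine genes are induced less (tolerized genes), while other genes, often antimicrobial ones, stay inducible or are expressed more.

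Expression is given as normalized CPM, which are read counts scaled to a common library total, in cultures 1, 2 and 3, in that order. A log2 fold change (log2FC) is that of the second LPS against the first with its standard error (SE), n = 3 cultures in each group, and adjusted p-values are from edgeR's quasi-likelihood test over all 11878 genes tested, with a threshold of 0.05. "Higher" and "lower" are used of calls under that test. A single gene tested by exact permutation of 3 cultures against 3 cannot reach a p under 0.1.

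The 6 libraries held 7797424 to 13805923 reads on genes. Pool numbers are inferred here from the prefixes of the count columns, such as MB_1, which are not themselves named as pools. Read in this way, the libraries of each group came from pools 1, 2 and 4, so the pool was balanced between the groups. The TMM factors, which adjust library totals for differences in composition, were 0.680 to 0.704 after the first LPS and 0.897 to 0.977 after the second. Without them each log2FC would be 0.455 higher. Of 8 macrophage markers, all were detected in both groups, with a summed level of 5504 to 7341 CPM after the first LPS and 5563 to 7973 CPM after the second, and those ranges overlapped. The F4/80 gene *Adgre1* and the CD11b gene *Itgam* (log2FC 2.19, or 1.39 without second LPS culture 3) were higher and the efferocytosis receptor *Mertk* was lower at the second LPS, and *Csf1r*, *Cd68*, *Spi1*, *Lyz2* and *Fcgr1* did not pass the threshold. The higher calls were 25% of the 8 markers and the lower call 12.5%, beside 12.4% and 13.1% of all genes. The marker lists of lymphocytes, mast cells and basophils, dendritic cells and erythroid cells each summed to at most 6.04 CPM in any of the 6 libraries, with 7 of 8 lymphocyte and 5 of 5 erythroid markers at 0 in all second LPS cultures. The 6 stromal markers summed to 313 to 424 CPM after the first LPS and to 136.5 to 175 CPM after the second, with *Col1a2* lower (-1.89) and *Col1a1* lower too but for a call lost without second LPS culture 1 or 2 or first LPS culture 2. These calls were 33.3% of the 6 stromal markers, beside 13.1% of all genes. In bulk RNA, fewer cells of a type and less RNA per cell cannot be told apart.

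At the second LPS 1557 of 11878 genes were lower (13.1%) and 1471 were higher (12.4%) than at the first. With only the 6 compared libraries in the fit 1322 were lower and 911 higher. The groups of cultures did not overlap for 1472 of the lower and 1326 of the higher genes, against 37.5% of all genes tested. Within pools 1, 2 and 4 each taken alone 1510 of the lower and 1419 of the higher genes had the direction of the call. The calls were made on these same 6 libraries, so both counts describe the called genes and add no separate evidence for them. Among the lower genes 629 changed at least 4-fold, as did 446 of the higher genes. The median log2FC of all genes tested was 0.13.

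**Figure D1:**
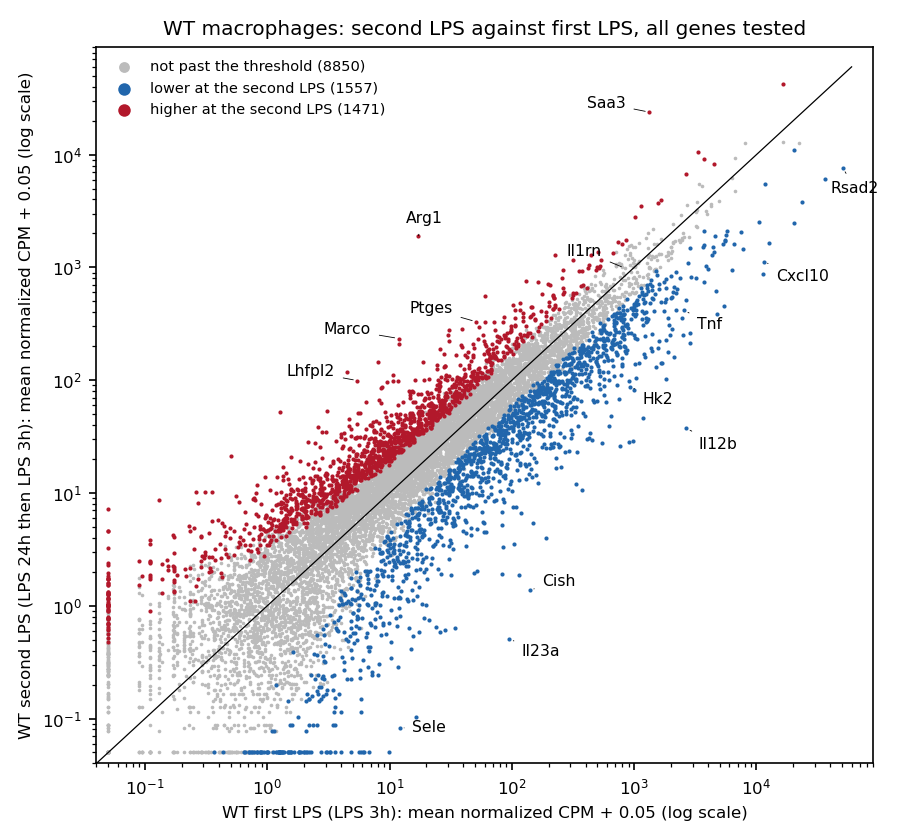
Mean normalized CPM (plus 0.05, log scales) of each gene tested after the first LPS (x axis) and the second LPS (y axis), 3 WT cultures each, with 1557 lower genes in blue, 1471 higher genes in red and the line of equality. *Il12b*, *Cish* and *Il23a* lie far below the line, and *Arg1*, *Saa3* and *Marco* far above it.

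To follow genes that a first LPS induces without choosing them on the WT cultures, 1795 genes were taken that rose at least 2-fold in *Irg1*-/- cells after LPS 3h against Unstim. (adjusted p under 0.05), with *Acod1* left out because it is the deleted gene (mean 11.96 CPM in *Irg1*-/- and 22181 CPM in WT cells after LPS 3h). Those unstimulated cultures came from pool 4 and the stimulated ones from pools 2 and 3, so that pool and treatment cannot be told apart in the choice of the list. In WT cells 886 of the 1795 genes (49.4%) were lower at the second LPS than at the first and 70 (3.90%) were higher, beside 13.1% and 12.4% of all genes. The median log2FC was -1.02 for the induced genes and 0.28 for the 10083 others. Of the 10083 other genes 1401 (13.9%) were higher and 671 (6.65%) lower, so that 70 of the 1471 higher genes (4.76%) and 886 of the 1557 lower genes (56.9%) were on the induced list. Among the induced genes 352 (19.6%) were at least 4-fold lower and 58 (3.23%) at least 16-fold lower, and 28 (1.56%) were at least 4-fold higher. Over all 11878 genes tested these counts were 629, 159 and 446. For 186 induced genes (10.4%) the 95% interval of the log2FC lay within a 2-fold change in either direction, as it did for 1762 of the 11878 genes tested. Of the genes induced at least 4-fold in *Irg1*-/- cells, 990 in all, 60.4% were lower and 4.24% higher.

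**Figure D2:**
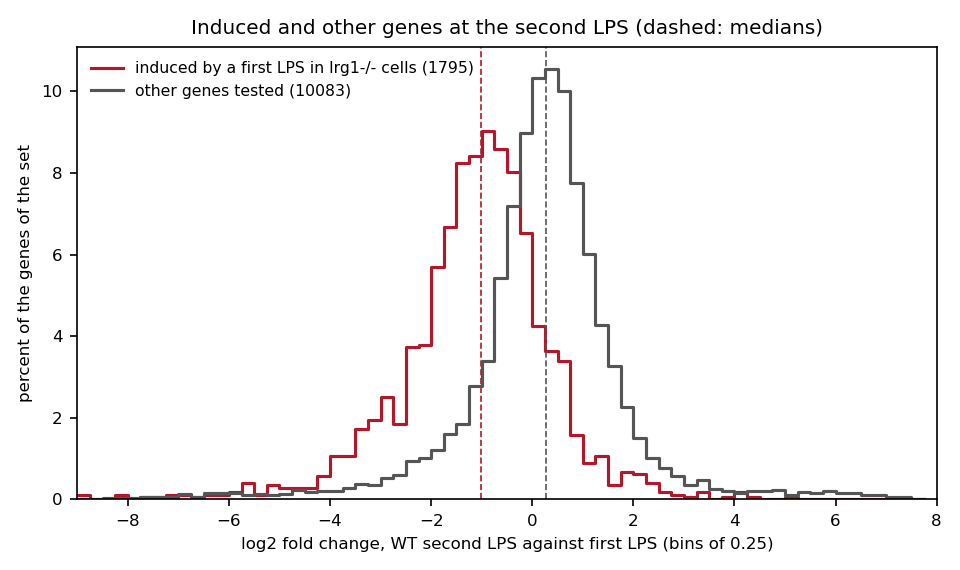
Distribution of the log2FC between the second and the first LPS in WT cells (bins of 0.25) for 1795 genes induced by a first LPS in *Irg1*-/- cells (red) and 10083 other genes tested (grey), as percent of each set. The dashed medians are -1.02 and 0.28.

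Levels at the second LPS were also set against those of cells without a second dose. Against WT Unstim. cells, all of which came from pool 4, 862 of the 1795 induced genes were still higher at the second LPS, beside 11.3% of all genes tested. Against WT cells after LPS 24h, which were harvested without a medium change or rest, 204 of the 1795 (11.4%) were higher at the second LPS, beside 2.46% of all genes, and 30 (1.67%) were lower, beside 1.53%. This last comparison shares the second LPS cultures with the main one, so its values are given beside the main ones gene by gene, and in it the second dose cannot be told apart from the medium change and rest. Its count of 204 fell to 119 without LPS 24h culture 2.

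**Figure D3:**
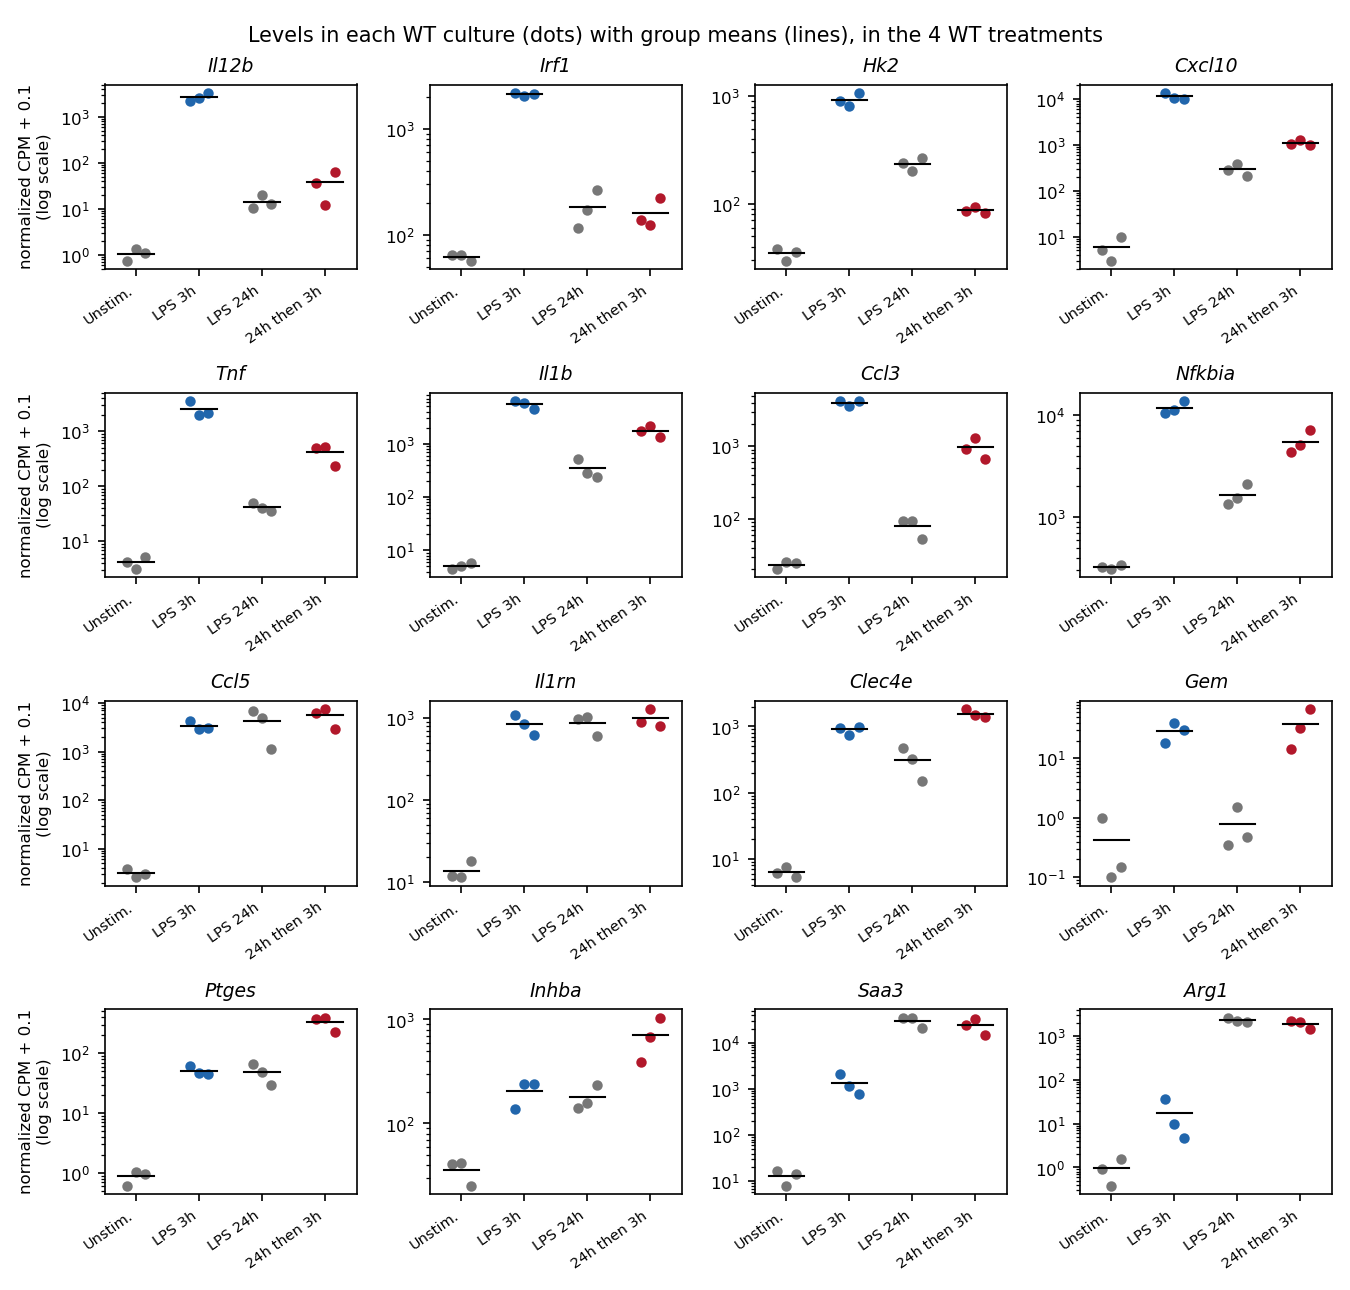
Normalized CPM plus 0.1 (log scale) of 16 genes in each WT culture (dots) and the group means (lines) in Unstim., LPS 3h (first LPS, blue), LPS 24h and LPS 24h->LPS 3h (second LPS, red) cells. At the second LPS *Irf1* overlapped with and *Hk2* lay below the LPS 24h values, *Tnf* and *Ccl3* lay between LPS 24h and the first LPS, *Il1rn* overlapped with its first LPS values, and *Ptges*, *Inhba*, *Saa3* and *Arg1* exceeded them.

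Promoters of 6 genes are shown, from genes of the groups described next, some lower and some higher at the second LPS. The genes were not matched for level or induction. Shown first are the promoters of the NF-kappaB target genes *Tnf* and *Cxcl2*, and of *Cxcl10*, which holds letters of several factors. The other promoters are those of the interferon-stimulated genes *Ifit1*, which was lower, and *Bst2*, which was higher, and of the acute phase gene *Saa3*, which was higher. Each is the 250 bases before the RefSeq gene start (GRCm38.p6), 5′ to 3′ on the gene's strand, with capitals for matches on either strand to TATAAA, the core of the box that positions the start of transcription in many inducible genes, to GGANNTTCC (NF-kappaB), to GAAANNGAA (ISRE, the interferon response element) or to TGANTCA (AP-1).
*Tnf*: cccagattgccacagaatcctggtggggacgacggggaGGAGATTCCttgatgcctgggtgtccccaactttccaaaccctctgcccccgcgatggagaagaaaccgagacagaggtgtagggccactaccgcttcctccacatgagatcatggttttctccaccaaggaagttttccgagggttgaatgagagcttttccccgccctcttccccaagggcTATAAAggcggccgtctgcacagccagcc
*Cxcl2*: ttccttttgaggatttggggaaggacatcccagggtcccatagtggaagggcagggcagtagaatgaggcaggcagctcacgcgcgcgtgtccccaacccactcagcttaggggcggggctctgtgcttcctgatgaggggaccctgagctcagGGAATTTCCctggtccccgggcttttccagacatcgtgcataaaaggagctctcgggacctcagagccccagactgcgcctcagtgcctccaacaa
*Cxcl10*: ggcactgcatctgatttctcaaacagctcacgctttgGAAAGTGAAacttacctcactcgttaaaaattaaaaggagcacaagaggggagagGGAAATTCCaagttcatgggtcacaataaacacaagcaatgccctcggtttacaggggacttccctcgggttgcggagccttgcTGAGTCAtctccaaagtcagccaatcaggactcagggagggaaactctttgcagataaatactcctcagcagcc
*Ifit1*: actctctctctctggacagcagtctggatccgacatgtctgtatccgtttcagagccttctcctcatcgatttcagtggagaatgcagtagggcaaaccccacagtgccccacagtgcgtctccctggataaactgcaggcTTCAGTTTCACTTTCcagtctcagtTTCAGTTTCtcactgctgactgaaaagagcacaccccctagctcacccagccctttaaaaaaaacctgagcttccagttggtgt
*Bst2*: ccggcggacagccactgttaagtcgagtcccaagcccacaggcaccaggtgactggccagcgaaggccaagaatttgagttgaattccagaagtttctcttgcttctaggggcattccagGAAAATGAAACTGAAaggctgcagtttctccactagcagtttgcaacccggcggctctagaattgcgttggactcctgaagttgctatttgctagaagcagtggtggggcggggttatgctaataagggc
*Saa3*: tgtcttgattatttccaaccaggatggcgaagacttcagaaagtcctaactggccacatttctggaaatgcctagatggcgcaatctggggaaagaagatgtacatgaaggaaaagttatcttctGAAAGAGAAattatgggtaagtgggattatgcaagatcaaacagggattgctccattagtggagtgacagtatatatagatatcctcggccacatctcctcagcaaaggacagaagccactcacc

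These windows lie at chr17:35202008-35202257 (minus strand, *Tnf*), chr5:90903649-90903898 (plus, *Cxcl2*), chr5:92348890-92349139 (minus, *Cxcl10*), chr19:34640639-34640888 (plus, *Ifit1*), chr8:71537473-71537722 (minus, *Bst2*) and chr7:46715677-46715926 (minus, *Saa3*). The *Tnf* window holds an NF-kappaB match that begins 212 bases before the start and a TATAAA at 29 bases, and the *Cxcl2* window an NF-kappaB match at 96 bases. In *Cxcl10* an ISRE match begins at 213 bases, an NF-kappaB match at 158 and an AP-1 match at 74. The *Ifit1* window holds ISRE matches at 109, 103 and 84 bases, the first pair overlapping, and *Bst2* overlapping ISRE matches at 130 and 124 bases, so both the lower and the higher interferon-stimulated gene carry those letters. *Saa3* has an ISRE match at 125 bases. A match is a description of letters, not a binding site.

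In windows of 300 bases (the 250 above and 50 after the start, first start listed per gene), 4.24% of the table's 27025 promoters hold the NF-kappaB letters, 8.57% the ISRE, 7.93% the AP-1 and 14.2% the TATAAA letters. Among genes tested, 9513 of 11878 matched a promoter (80.1%), with 4.61%, 7.54%, 5.08% and 7.17%. For induced genes lower at the second LPS (709 of 886 matched) the shares were 6.91%, 14.1%, 7.62% and 11%, and for induced genes higher (61 of 70 matched) 4.92%, 13.1%, 11.5% and 13.1%. For induced genes whose interval lay within 2-fold (154 of 186 matched) they were 2.60%, 10.4%, 7.79% and 6.49%. No test was run on these shares, and those of the induced genes that were higher rest on 3 to 8 promoters with a match. Under 80% of the 1795 induced genes and of the 1557 lower genes matched, so shares over those sets are void and not given.

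Cytokine genes had the lowest median log2FC of the lists other than those of cell type markers, -2.48 beside 0.13 over all genes. Of 18 genes tested, 14 were lower (77.8%) and 1 higher (5.56%), beside 13.1% and 12.4% of all genes. With each of the 6 libraries left out in turn, 12 of the 14 lower calls and the higher one stayed past the threshold, the exceptions being *Il12a* and *Lif*, both lost without any 1 of them. *Il12b*, the p40 subunit shared by IL-12 and IL-23, had 2155, 2549.8 and 3309 CPM after the first LPS and 35.97, 11.9 and 64.1 after the second (log2 fold change -6.16 ± 0.50, adjusted p = 3.8e-10). Each second LPS culture was far below every first LPS culture, and the mean at the second LPS was 1.397% of that at the first. *Il23a*, the p19 subunit of IL-23, fell from 106, 107 and 73.8 CPM to 0, 1.36 and 0 (log2 fold change -7.69 ± 0.73, adjusted p = 8.81e-09). No read of *Il23a* was found in second LPS cultures 1 and 3, and without culture 2 the fitted log2FC was -13.10.

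*Il6* had 378, 502 and 393 CPM after the first LPS and 11.1, 21.4 and 59.8 after the second (log2 fold change -3.78 ± 0.54, adjusted p = 3.58e-06), with culture 3 the highest of the tolerized cultures but still below the lowest of the others. *Il27*, which pairs with EBI3 to form IL-27, had 633, 889 and 792 and 24.2, 23.9 and 30.2 CPM (log2 fold change -4.88 ± 0.51, adjusted p = 1.73e-08), whereas its partner *Ebi3* had a log2FC of -0.52 (adjusted p = 0.348). *Tnf* had 3524, 2012 and 2179 CPM after the first and 496, 519.99 and 234 after the second LPS (log2 fold change -2.63 ± 0.36, adjusted p = 1.89e-06), again without overlap. *Tnf* at the second LPS was nonetheless higher than in LPS 24h cells, where it had 50.5, 41.1 and 35.1 CPM (log2 fold change 3.30 ± 0.37, adjusted p = 6.64e-07).

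Both IL-1 genes followed *Tnf*. *Il1b* had 6259, 5892 and 4467 CPM after the first LPS, 524, 280.4 and 234 after LPS 24h and 1738, 2110.3 and 1316 after the second LPS (log2 fold change -1.69 ± 0.31, adjusted p = 0.000116), so that the second LPS reached 31.1% of the first while exceeding LPS 24h (log2 fold change 2.31 ± 0.31, adjusted p = 1.42e-05). *Il1a* went from 5815, 2746 and 2687 to 842, 942 and 455 CPM (log2 fold change -2.33 ± 0.38, adjusted p = 2.72e-05). The TNF family ligands *Tnfsf15* (TL1A; log2FC -3.54) and *Tnfsf9* (4-1BB ligand; -5.15) were lower too, as were *Il15* (-3.75), *Il18* (-1.43) and the macrophage growth factor *Csf1* (-2.88). *Tnfsf15* rose from 9.105 CPM on average in LPS 24h cells to 130.1 at the second LPS (log2 fold change 3.84 ± 0.32, adjusted p = 3.69e-09), whereas *Tnfsf9* had 11.8 and 10.6 CPM (adjusted p = 0.918).

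*Inhba*, the activin A subunit, was the higher member of the list. It had 138, 242 and 241 CPM after the first LPS and 392, 674 and 1041 after the second (log2 fold change 1.76 ± 0.34, adjusted p = 0.000231), with every second LPS culture above every first LPS culture. It was also higher than in LPS 24h cells, which had 142, 158 and 233 CPM (log2 fold change 1.98 ± 0.34, adjusted p = 0.000383). *Osm* (0.09, adjusted p = 0.908) and *Csf3* (3.36, adjusted p = 0.0615, at most 2.92 CPM in any culture of either group) did not pass the threshold, and *Csf2* was not tested because its counts were too low.

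Of 17 chemokine genes 12 were lower (70.6%, beside 13.1% of all genes), 0 were higher and 5 were not called, with a median log2FC of -2.05. With each library left out in turn 9 of the 12 stayed past the threshold, and *Ccl17*, *Ccl22* and *Ccl12* did not; *Ccl22* was lost without first LPS culture 1, *Ccl17* without any 1 library, and *Ccl12* without second LPS culture 1 or 3 or first LPS culture 1 or 2. *Cxcl10*, an interferon-dependent chemokine for T cells, had 13719, 10722 and 9905 CPM after the first and 1029, 1316 and 1014 after the second LPS (log2 fold change -3.35 ± 0.38, adjusted p = 7.25e-08). *Cxcl2*, a neutrophil attractant, had 31603, 19164 and 19888 and 4549, 3412 and 3416 CPM (log2 fold change -2.63 ± 0.32, adjusted p = 2.29e-07). Neither gene's groups overlapped.

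*Ccl3* and *Ccl4*, the MIP-1 chemokines, were about 4-fold lower at the second LPS (log2 fold change -2.05 ± 0.32, adjusted p = 1.63e-05, and log2 fold change -2.04 ± 0.32, adjusted p = 1.63e-05) but far above LPS 24h cells. *Ccl3* had 92.03, 93.04 and 51.7 CPM in LPS 24h cells and 931, 1293 and 665 at the second LPS (log2 fold change 3.61 ± 0.34, adjusted p = 4.44e-08), and for *Ccl4* the log2FC against LPS 24h was 3.73. *Cxcl1* (-2.12 against the first LPS and 3.57 against LPS 24h) and *Cxcl11* (-3.18 and 2.24) had the same signs. *Ccl9*, by contrast, had 244 CPM on average in Unstim. cells, 1407 after the first LPS, 216 after LPS 24h and 255 at the second LPS (log2FC -2.47 against the first, and adjusted p = 0.794 against LPS 24h).

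*Ccl5* (RANTES) had 4182, 2945 and 3014 CPM after the first LPS and 6252, 7362 and 2933 after the second (log2 fold change 0.71 ± 0.41, adjusted p = 0.211), the groups overlapping through culture 3. It was already at 6929.6, 4911 and 1153 CPM in LPS 24h cells. The monocyte attractant *Ccl2* (log2FC -0.48, adjusted p = 0.41) and *Cxcl16* (-0.16, adjusted p = 0.728) also overlapped between groups. For *Ccl5* the 95% interval of the log2FC ran from -0.13 to 1.54.

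Of 30 genes for interferon-beta and interferon-stimulated products, 20 were lower (66.7%) and 1 was higher (3.33%), beside 13.1% and 12.4% of all genes. The median log2FC was -1.57. With each library left out in turn 19 of the 20 stayed lower and *Oas2* did not, being lost without any 1 library. *Ifnb1* itself had 5.83, 31.9 and 19.6 CPM after the first LPS and 0.231, 2.14 and 3.39 after the second (log2 fold change -3.29 ± 0.88, adjusted p = 0.00672). The antiviral gene *Rsad2* (viperin) had 52154, 42781 and 58312 CPM and 5198, 4411 and 13132 CPM (log2 fold change -2.75 ± 0.36, adjusted p = 1.07e-06), and *Ifit1* had 9103, 21218 and 7635 and 1468, 1369 and 2143 (log2 fold change -2.93 ± 0.41, adjusted p = 3.52e-06). Groups did not overlap for any of the 3.

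Against LPS 24h cells 1 of the 30 genes of this list was higher and 3 were lower, beside 2.46% and 1.53% of all genes. *Irf1*, a transcription factor, had 2194, 2042 and 2137 CPM after the first LPS, 116, 173 and 265 after LPS 24h and 139, 124 and 222 after the second LPS (log2 fold change -3.72 ± 0.31, adjusted p = 7.09e-10, and adjusted p = 0.82 against LPS 24h). *Rsad2* had 6889 CPM on average after LPS 24h and 7580.5 at the second LPS. *Cmpk2* (-3.56), *Mx1* (-3.34), *Gbp5* (-4.15) and *Ifih1* (-3.46), which encodes the RNA sensor MDA5, were lower than at the first LPS by similar or larger amounts, and none of the 4 differed from LPS 24h past the threshold. Over the list, 1 gene, *Oasl1*, was higher at the second LPS than at LPS 24h (log2 fold change 1.36 ± 0.34, adjusted p = 0.0153; lost without LPS 24h culture 2 or 3) and 3, *Ifit2*, *Isg15* and *Stat2*, were lower than at LPS 24h.

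*Stat2* illustrates that decline, with 1275, 1021 and 1189.8 CPM after the first LPS, 719, 1002 and 2253 after LPS 24h and 445, 452 and 343 after the second LPS. Its log2FC was -1.49 against the first LPS and -1.68 against LPS 24h (adjusted p = 0.00772), the latter lost without LPS 24h culture 3. *Irf7*, which drives later interferon-alpha genes, had 338, 618 and 229 and 604, 824 and 495 CPM (log2 fold change 0.70 ± 0.37, adjusted p = 0.169), the groups overlapping. *Bst2* (tetherin) was the higher member, with 34.99, 22.05 and 29.1 CPM after the first and 83.4, 180.1 and 68.8 after the second LPS (log2 fold change 1.95 ± 0.34, adjusted p = 6.78e-05), every second LPS culture being above every first.

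**Figure D4:**
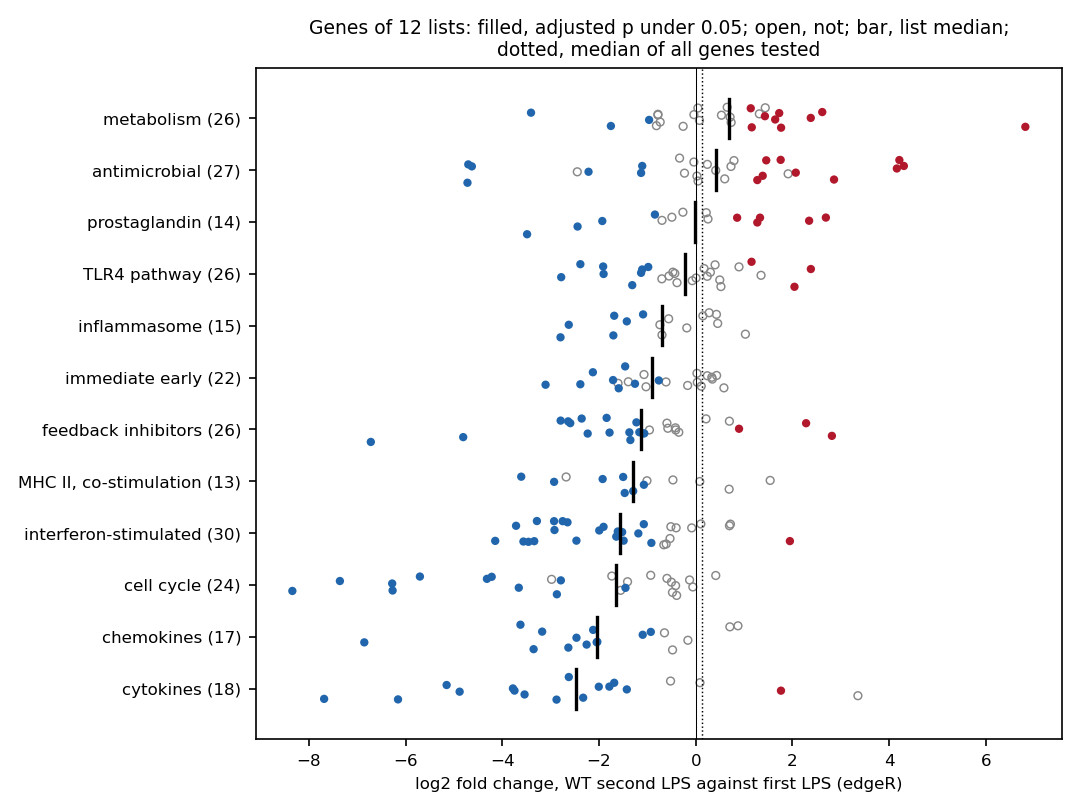
Log2FC of the second against the first LPS in WT cells for each tested gene of 12 lists (number tested in brackets), filled where adjusted p was under 0.05 and open otherwise, with the median of each list (bar) and of all genes (dotted, 0.13). List medians run from -2.48 for cytokines to 0.68 for metabolism, and the 4 cell cycle genes and 1 chemokine with no read in any second LPS culture are plotted at fitted values that are not bounds.

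Genes that limit TLR signalling were largely lower as well. Of 26 feedback genes tested 15 were lower (57.7%) and 3 higher (11.5%, near the 12.4% of all genes), with a median log2FC of -1.13. Of these calls 13 and 1 stayed past the threshold with each library left out. Of the lower calls *Dusp5* was lost without first LPS culture 1 and *Nfkb2* without second LPS culture 2. *Nfkbia*, the inhibitor IkappaB-alpha, had 10408, 11117 and 13652 CPM after the first LPS and 4332, 5083 and 7051 after the second (log2 fold change -1.10 ± 0.27, adjusted p = 0.00289), without overlap. It exceeded the 1349.7, 1534 and 2095 CPM of LPS 24h cells (log2 fold change 1.73 ± 0.27, adjusted p = 0.000131). *Tnfaip3* (A20), which edits ubiquitin chains, had 1079, 1104 and 1402 and 107, 199.7 and 209.8 CPM (log2 fold change -2.79 ± 0.42, adjusted p = 9.38e-06).

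*Cish*, a suppressor of cytokine signalling, was among the deepest falls of all genes, from 149.8, 129.8 and 141 CPM after the first LPS to 1.61, 1.07 and 1.29 after the second (log2 fold change -6.72 ± 0.56, adjusted p = 4.88e-10), near its 1.45 CPM in LPS 24h cells. *Dusp2*, a MAP kinase phosphatase, fell from 353, 317 and 342 to 11.4, 18.2 and 6.46 CPM (log2 fold change -4.81 ± 0.56, adjusted p = 1.4e-07). *Socs1* (-2.60), *Socs3* (-1.84), *Nfkbiz* (-2.36), the mRNA decay factor *Zfp36* (-2.23) and the repressor *Atf3* (-1.23) were lower as well. *Il10*, the anti-inflammatory cytokine, had 62.3, 59.98 and 48.2 and 11.4, 9.45 and 28.5 CPM (log2 fold change -1.78 ± 0.47, adjusted p = 0.00482), with culture 3 again the highest of the tolerized cultures.

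Another phosphatase of the list moved the other way. *Dusp4* had 21.3, 25.8 and 16.03 CPM after the first LPS and 111, 100.5 and 96.7 after the second (log2 fold change 2.28 ± 0.34, adjusted p = 6.64e-06), every tolerized culture being above every other. In LPS 24h cells it had 20.5, 14.1 and 16.5 CPM, below its level at the second LPS (log2 fold change 2.59 ± 0.34, adjusted p = 9.51e-06). *Dusp1* (log2FC 0.90) and *Trib3* (2.82) were called higher, but *Dusp1* was lost without second LPS culture 2 (log2FC 0.57) or first LPS culture 2 or 3, and *Trib3* without second LPS culture 1 or first LPS culture 2 or 3, and rose to a log2FC of 4.47 without first LPS culture 1. *Il1rn*, the IL-1 receptor antagonist, had 1073, 845 and 619.7 and 889, 1264 and 789 CPM, which overlap (log2 fold change 0.21 ± 0.33, adjusted p = 0.661), and the kinase-like inhibitor *Irak3* overlapped also (log2FC -0.35, adjusted p = 0.53).

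Of 26 genes of the TLR4 complex, its adaptors and kinases, 8 were lower (30.8%, beside 13.1% of all genes) and 3 higher (11.5%, near the 12.4% of all genes), with a median log2FC of -0.23. Of these calls 6 and 2 stayed past the threshold with each library left out. The kinase *Map3k8* (TPL2) had 99.7, 109 and 120.02 CPM after the first LPS and 14.3, 18.5 and 14.9 after the second (log2 fold change -2.78 ± 0.28, adjusted p = 1.15e-08), which was close to its 18.1 CPM in Unstim. cells. The adaptor *Tab2* had 2959.7, 1580.5 and 2040.3 and 485, 383 and 391 CPM (log2 fold change -2.39 ± 0.30, adjusted p = 5.37e-07). The NF-kappaB subunit genes *Nfkb1* (-1.91) and *Rel* (-1.91) and the kinases *Ikbkb* (-1.31) and *Irak2* (-1.11) were lower too.

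*Cd14*, the LPS co-receptor, had 922, 970.3 and 1071 and 299, 659 and 397 CPM (log2 fold change -1.13 ± 0.33, adjusted p = 0.0123), a call lost without second LPS culture 1, and *Myd88* (log2FC -0.98, adjusted p = 0.0248) lost its call without second LPS culture 2 or 3 or first LPS culture 1 or 2. The receptor *Tlr4* had 21.7, 11.97 and 13.4 and 27.2, 23 and 36.9 CPM (log2 fold change 0.90 ± 0.38, adjusted p = 0.0777), and its partner *Ly96* (MD-2) a log2FC of 0.17 (adjusted p = 0.761). *Ticam2* (TRAM), the bridging adaptor of the TRIF arm, was higher, with 10.6, 10.8 and 9.41 CPM after the first and 44.3, 28.1 and 54.5 after the second LPS (log2 fold change 2.04 ± 0.33, adjusted p = 2.28e-05). *Traf3*, a ubiquitin ligase of the same arm, had 23.1, 20.3 and 14.2 and 138, 41.8 and 121 CPM (log2 fold change 2.38 ± 0.47, adjusted p = 0.000313). *Ticam1* (TRIF) was called higher (log2FC 1.16) and lost that call without second LPS culture 2 or first LPS culture 2 or 3.

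Of 22 immediate early and AP-1 genes 8 were lower (36.4%, beside 13.1% of all genes) and 0 higher (median log2FC -0.90). With each library left out 5 of the 8 stayed lower, *Nr4a3*, *Btg2* and *Fosl2* being lost without any 1 of 4 libraries. *Junb* had 622, 647 and 662 CPM after the first LPS and 178, 274 and 138 after the second (log2 fold change -1.71 ± 0.29, adjusted p = 5.42e-05), and *Maff*, *Ier2*, *Ier3* and *Klf6* were lower by -2.39, -2.13, -1.59 and -1.46 on the log2 scale. *Egr1* had 8.57, 9.96 and 11.5 and 15.2, 7.99 and 12.4 CPM, overlapping (log2 fold change 0.24 ± 0.40, adjusted p = 0.691), against 1.22, 1.698 and 1.62 CPM in LPS 24h cells (log2 fold change 2.95 ± 0.44, adjusted p = 6.49e-05). *Fos*, *Jun* and *Jund* had log2FC of 0.43, 0.33 and 0.03, none past the threshold.

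Inflammasome components and substrates were lower or not called. Of 15 genes, *Il1b* and *Il18* included, 6 were lower (40%, beside 13.1% of all genes) and 0 higher (median log2FC -0.70). With each library left out 5 of the 6 stayed lower. *Casp1* was lost without second LPS culture 1 or 2 or first LPS culture 1 (log2FC -0.69 without the last). The sensor *Nlrp3* had 836, 1326 and 5241 CPM after the first LPS and 317, 356 and 393 after the second (log2 fold change -2.80 ± 0.43, adjusted p = 1.28e-05). Its first LPS culture 3 lay far above the other cultures, and without it the log2FC was -1.61. *Nlrp3* was at 44.8, 29.05 and 47.6 CPM in LPS 24h cells and was higher at the second LPS (log2 fold change 3.13 ± 0.44, adjusted p = 2.4e-05). The DNA sensor *Aim2* (-2.63) and *Casp4* (-1.70), which encodes the sensor of intracellular LPS, were lower. The adaptor *Pycard* (-0.56, adjusted p = 0.138), the kinase *Nek7* (-0.74, adjusted p = 0.0546) and the pore former *Gsdmd* (-0.18, adjusted p = 0.681) did not pass the threshold.

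Antimicrobial, acute phase and pattern recognition genes divided. Of 27 tested 9 were higher (33.3%) and 6 lower (22.2%), beside 12.4% and 13.1% of all genes (median log2FC 0.41). Of these calls 7 and 3 stayed past the threshold with each library left out (*Hp*, *Fpr2*, *Cd14*, *Ptx3* and *Ncf1* did not). *Saa3*, an acute phase serum amyloid made by macrophages, had 2079, 1146 and 765 CPM after the first LPS and 24065, 32802 and 14536 after the second, 17.9-fold higher (log2 fold change 4.16 ± 0.43, adjusted p = 1.45e-08). *Marco*, a scavenger receptor for bacteria, had 12.6, 12.4 and 10.5 and 187, 192 and 323 CPM (log2 fold change 4.31 ± 0.51, adjusted p = 1.89e-07). *Slpi*, a protease inhibitor with antimicrobial activity, had 13.3, 9.36 and 1.06 and 175, 185 and 74.7 CPM (log2 fold change 4.21 ± 0.59, adjusted p = 3.02e-06). For all 3 genes the lowest second LPS culture was above the highest first LPS culture.

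These genes were also high without a second dose. In LPS 24h cells *Saa3* had 35061, 33707 and 21296 CPM, *Marco* 168, 116 and 79.6 and *Slpi* 222, 114 and 50.4, and none of the 3 differed between LPS 24h and the second LPS past the threshold (adjusted p = 0.742, 0.276 and 0.922). The same held for the formyl peptide receptor *Fpr1* (log2FC 2.86 against the first LPS, and adjusted p = 0.606 against LPS 24h) and the iron-siderophore trap *Lcn2* (2.07 and adjusted p = 0.974). *Hp* and *Fpr2* were also higher (1.76 and 1.27), but *Hp* was lost without first LPS culture 3 and *Fpr2* without second LPS culture 1 (log2FC 0.83). *Clec4e* (Mincle), a receptor for glycolipids, behaved differently, with 961, 754 and 989.6 CPM after the first LPS, 467, 317 and 152 after LPS 24h and 1810.2, 1494 and 1377 after the second LPS (log2 fold change 0.79 ± 0.33, adjusted p = 0.0726, and log2 fold change 2.32 ± 0.34, adjusted p = 4.8e-05 against LPS 24h).

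The lower antimicrobial genes included granule proteins of neutrophil precursors. *Ngp* had 59.6, 52.3 and 35.5 CPM after the first LPS and 2.08, 3.61 and 0 after the second (log2 fold change -4.72 ± 0.64, adjusted p = 2e-06), *Camp* had 24.6, 15.5 and 16.6 and 0.231, 1.17 and 0.808 (log2 fold change -4.63 ± 0.64, adjusted p = 2.21e-06), and *Chil3* (Ym1) had 69.3, 41.6 and 44.9 and 1.27, 3.8 and 0.888 (log2 fold change -4.71 ± 0.50, adjusted p = 3.22e-08). *Ltf* (lactoferrin), one of the 15 genes with the lowest log2FC, had 26.98, 26.8 and 18.3 and 1.73, 0 and 0.0808 CPM (log2FC -5.43, or -8.78 without second LPS culture 1). Together these 4 genes, chosen after their values were seen, summed to 115 to 180.4 CPM after the first LPS, 3.92 to 14.5 after LPS 24h and 1.78 to 8.58 after the second LPS, and to 117.5 to 149 in Unstim. cells. The 8 markers of neutrophils and their precursors summed to 112 to 158 CPM after the first and 83.7 to 108 after the second LPS, without overlap. After LPS 24h they summed to 105 to 192 CPM, which overlapped with the first LPS, and in Unstim. cells to 167 to 198. *Ly6g*, *Mpo*, *Prtn3* and *Retnlg* were at 0 in all second LPS cultures, and none of the 8 was at 0 in all first LPS cultures. Of these markers 7 were tested, 0 were higher and 2 were lower (28.6%, beside 13.1% of all genes). The lower ones were *Retnlg* (at least 13.6-fold, against a floor of 3 counts per library) and *Prtn3*, the latter lost without any 1 second LPS culture or first LPS culture 2. The part of such cells in the granule gene values was not tested.

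Metabolic genes were more often higher than lower at the second LPS: of 26 genes for itaconate, arginine, glycolytic and antioxidant metabolism 9 were higher (34.6%) and 3 lower (11.5%, near the 13.1% of all genes), with a median log2FC of 0.68. Of these calls 8 and 2 stayed past the threshold with each library left out. *Arg1* (arginase 1) had the highest log2FC of the genes ranked, with 37.2, 9.602 and 4.64 CPM after the first LPS and 2176, 2122 and 1437 after the second (log2 fold change 6.82 ± 0.59, adjusted p = 9.72e-10). In LPS 24h cells it had 2641, 2251 and 2148 CPM, and Unstim. cells averaged 0.862. *Acod1* (*Irg1*), the itaconate-producing enzyme, had 22837, 28063 and 15643 CPM after the first LPS, 3794, 4015 and 5799 after LPS 24h and 11389, 10381 and 16122 after the second LPS (log2 fold change -0.81 ± 0.45, adjusted p = 0.188), the first and last overlapping. The iNOS gene *Nos2* overlapped too, with 184, 82.1 and 90.3 and 209.9, 65.3 and 72.4 CPM (log2 fold change -0.04 ± 0.47, adjusted p = 0.965).

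Glycolytic genes moved in both directions. *Hk2* (hexokinase 2), which starts glycolysis, had 897, 807 and 1072 CPM after the first LPS, 237, 201 and 267 after LPS 24h and 86.2, 92.6 and 82.7 after the second LPS (log2 fold change -3.41 ± 0.29, adjusted p = 9.72e-10), and its level at the second LPS was below that at LPS 24h (log2 fold change -1.43 ± 0.27, adjusted p = 0.00145). The regulator *Hif1a* was lower as well, with 875, 999 and 795 and 311, 260.1 and 220.5 CPM (log2 fold change -1.75 ± 0.33, adjusted p = 0.000152). Enzymes of later steps were higher: *Gapdh* (log2FC 1.77), *Eno1* (1.14), *Pkm* (1.73) and *Ldha* (1.64), and so was the lactate exporter *Slc16a3* (2.38). *Pkm* had 184, 164 and 177 and 666, 700.2 and 373 CPM, and *Slc16a3* 30.4, 21.6 and 20.9 and 137, 156 and 86.2, with no overlap for either. *Pgk1* was called higher (1.43) but lost the call without any 1 library other than second LPS culture 1, and *Slc7a11*, a cystine transporter, was called lower (-0.96) and lost without second LPS culture 3 or first LPS culture 1. The heme-degrading enzyme *Hmox1* had 34.6, 23 and 25.7 and 117, 285 and 109 CPM (log2 fold change 2.62 ± 0.38, adjusted p = 5.63e-06).

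Prostaglandin genes moved in opposite directions within 1 pathway. Of 14 tested 5 were higher (35.7%) and 4 lower (28.6%), beside 12.4% and 13.1% of all genes (median log2FC -0.02). Only 2 of the higher and 3 of the lower calls stayed past the threshold with each library left out. *Ptgs2* (COX-2), which makes the common precursor, had 3945, 3776 and 3948 CPM after the first LPS and 741, 1031 and 1284 after the second (log2 fold change -1.93 ± 0.41, adjusted p = 0.000709), against 176 on average in LPS 24h cells. *Ptges*, the inducible synthase that turns it into prostaglandin E2, had 61.2, 47.4 and 44.4 and 368, 394 and 227 CPM (log2 fold change 2.69 ± 0.38, adjusted p = 2.93e-06). LPS 24h cells had 65.01, 48.1 and 29.9 CPM of *Ptges*, close to the first LPS, and the synthase was higher at the second LPS than there (log2 fold change 2.79 ± 0.38, adjusted p = 1.41e-05). Of the prostaglandin E2 receptors, *Ptger4* was lower (log2FC -2.44) and *Ptger2* higher (1.33). *Ptgs1* (COX-1) was lower, from 13.5, 15.9 and 16.4 to 1.499, 0.585 and 1.94 CPM (log2 fold change -3.49 ± 0.48, adjusted p = 2.3e-06).

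Among 13 genes of MHC class II and co-stimulation 7 were lower (53.8%, beside 13.1% of all genes) and 0 higher (median log2FC -1.29). With each library left out 4 of the 7 stayed lower. *Cd40*, the receptor for T cell help, had 997, 1126 and 855 CPM after the first LPS and 79.9, 94.4 and 69.7 after the second (log2 fold change -3.61 ± 0.40, adjusted p = 5.41e-08), and the adhesion molecule *Icam1* had 1291, 1148 and 1262 and 203, 189.9 and 93.2 (log2 fold change -2.93 ± 0.40, adjusted p = 1.75e-06). *Cd86* (-1.50) and *Cd80* (-1.93), the ligands of CD28, were lower. The PD-L1 gene *Cd274* was lower too (-1.47) but lost the call without first LPS culture 1. The class II genes *H2-Ab1* and *H2-Aa* did not pass the threshold (log2FC -0.47 and -1.01), and *H2-Eb1* (-1.29) and *Cd74* (-1.07) were called lower but lost without any 1 of 4 libraries.

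Cell cycle genes were lower at the second LPS in 11 of 24 cases (45.8%, beside 13.1% of all genes) and higher in 0. Their median log2FC was -1.64, or -1.51 with genes at 0 set to their bound, and 7 of the 11 stayed lower with each library left out. *Top2a*, a topoisomerase of dividing cells, had 26.4, 56.5 and 44.1 CPM after the first LPS and 2.54, 2.14 and 5.25 after the second (log2 fold change -3.66 ± 0.46, adjusted p = 5.84e-07), and *Mki67* had 147, 436 and 159 and 19.02, 21.05 and 61.05 (log2 fold change -2.87 ± 0.55, adjusted p = 0.000213). *Rrm2*, *Ccnb1*, *Tk1* and *Plk1* had no read in any second LPS culture; against a floor of 3 counts per library *Rrm2* was at least 12.1-fold and *Ccnb1* at least 6.06-fold lower. Summed over the list, levels were 319.9 to 663 CPM after the first LPS, 97.4 to 207 after the second, 122 to 127 after LPS 24h and 234 to 287 in Unstim. cells.

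Ranked by size among non-overlapping calls with a mean of at least 10 CPM in the higher group (2227 genes), the lowest log2FC belonged to *Sele*, the adhesion molecule E-selectin. It had 9.48, 17.5 and 9.27 CPM after the first LPS and 0, 0.0974 and 0 after the second, the latter being 1 read in all, which gives a ratio of 394 with a 95% counting interval of 70.1 to 15613. *Gprc5c*, an orphan receptor, had 27.3, 8.06 and 14.04 and 0, 0 and 0.162 CPM, with 2 reads in all at the second LPS and a ratio of 236 (64.9 to 1959.5). Unstim. cells averaged 9.99 CPM of *Gprc5c* and LPS 24h cells 0.

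Further genes among the 15 lowest were *Rnf125*, a ubiquitin ligase (log2FC -5.91), *Rnd1*, a small GTPase (-5.89), *Hdc*, which makes histamine (-5.65), the protease *Adamts4* (-5.60), tissue factor *F3* (-5.51) and *Hopx* (-5.47). *Adamts4* had 133, 185 and 256 CPM after the first LPS and 4.496, 2.44 and 4.85 after the second, and *Hdc* 35.5, 24.7 and 24.8 and 0.692, 0.585 and 0.404. Each was lower in all 3 second LPS cultures than in any first LPS culture, which the ranking required. The proliferation genes *Anln* (-5.61) and *Pclaf* (-5.44) completed the 15 with *Il23a*, *Il12b*, *Cish*, *Ltf* and *Tnfsf9*. Marker genes of mast cells and basophils, which also express *Hdc*, summed to 1.30 to 2.55 CPM after the first LPS and 1.21 to 6.04 after the second.

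Among the 15 highest, after *Arg1*, were genes at low levels after the first LPS. *Slamf6* had 2.37, 1.19 and 0.132 CPM after the first and 56.7, 66.5 and 34.7 after the second LPS (log2 fold change 5.49 ± 0.56, adjusted p = 1.36e-08), against 0.779 on average in Unstim. and 40.3 in LPS 24h cells. *Cd300lf*, an inhibitory receptor of myeloid cells, had 2.55, 9.25 and 1.46 and 41.97, 144 and 165 CPM (log2 fold change 4.69 ± 0.56, adjusted p = 2.4e-07), and *Bst1*, an ADP-ribosyl cyclase, had 15.5, 13.6 and 6.49 and 204, 205 and 212 (log2 fold change 4.13 ± 0.33, adjusted p = 3.8e-10). *Cd300lf* and *Bst1* averaged 2.54 and 7.83 CPM in Unstim. cells and 69.1 and 366 CPM after LPS 24h.

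Other genes of the 15 had their lowest level of the 4 WT treatments after the first LPS. *Lhfpl2* had 112, 119 and 90.4 CPM in Unstim. cells, 4.56, 2.37 and 9.27 after the first LPS, 88.3, 91.1 and 115 after LPS 24h and 101, 94.6 and 101 after the second LPS (log2 fold change 4.20 ± 0.42, adjusted p = 1.15e-08). *Ccdc125* had 28.7, 22.7 and 29.7, 1.09, 0 and 0.265, 23.01, 32.4 and 50.1 and 21.3, 15.6 and 27.1 CPM in the same order (log2 fold change 5.74 ± 0.56, adjusted p = 8.53e-09). *Tor4a* (24.8, 2.55, 28.1 and 38.1 CPM on average) and *Tmem104* (20.3, 2.998, 55.6 and 52.7) showed the same order of Unstim. above first LPS. The set was completed by *Gp6*, *Rhov*, *Prss46* and *Orm1* with log2FC of 5.66, 5.15, 5.10 and 3.92, the last lost without second LPS culture 2 or first LPS culture 1 or 2.

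Among the most abundant lower genes were *Tnfaip2*, with 27435, 40768 and 41065 CPM after the first LPS and 7792, 3884 and 6445 after the second (log2 fold change -2.59 ± 0.36, adjusted p = 2.66e-06), the syndecan *Sdc4* with 18699, 19617 and 22518 and 2767, 2067 and 2635 (log2 fold change -3.03 ± 0.29, adjusted p = 4.61e-09), and the ADP-ribosyltransferase *Parp14* (log2FC -2.06), beside *Rsad2*, *Cxcl2*, *Nfkbia* and *Ifit1*. *Actb* (beta-actin) was also among them (log2 fold change -0.88 ± 0.29, adjusted p = 0.0234), a call lost without second LPS culture 3 or first LPS culture 1. The abundant higher genes included the ferritin genes *Fth1*, with 18950, 14512 and 16301 and 50574, 48268 and 27853 CPM (log2 fold change 1.35 ± 0.29, adjusted p = 0.000845), and *Ftl1* (log2FC 1.25, lost without second LPS culture 2). They further held the peroxiredoxin *Prdx1* (1.31), the adaptor *Fyb* (1.37) and the complement receptor *C3ar1* (1.26). The protease *Ctss* had 3081, 3609.6 and 3351 and 4232, 6433 and 20950 CPM, and its log2FC of 1.65 fell to 0.67, not past the threshold, without second LPS culture 3. *Tmsb4x* (0.88) lost its call without second LPS culture 2 (log2FC 0.43) or any 1 of the first LPS cultures.

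Retained genes were sought among 441 genes that rose at least 8-fold in *Irg1*-/- cells and reached 10 CPM after the first LPS in WT cells, as the 10 with the tightest 95% interval of the log2FC around 0. *Rnf19b*, a ubiquitin ligase, had 235, 217 and 276 CPM after the first LPS and 268, 238 and 178 after the second (log2FC -0.09, interval -0.64 to 0.46). The nucleic acid sensor *Zbp1* had 203, 102 and 148 and 147, 161 and 121 CPM (log2FC -0.08, -0.70 to 0.54), and the nucleoside transporter *Slc28a2* 55.6, 42.1 and 39.2 and 39.1, 59.9 and 48.7 (log2FC 0.11, -0.59 to 0.81). In each of these the groups overlapped, but the genes were chosen by this same log2FC, so the overlap adds no separate evidence.

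The other 7 retained genes were the peptide transporter *Tap1*, *Dst*, *Slfn1*, *Oas1a*, the inhibitory ligand *Cd200*, *Tma16* and *Il1rn*, with log2FC between -0.08 (*Slfn1*) and 0.21 (*Il1rn*). Some were as high in LPS 24h cells: *Zbp1* averaged 137 CPM there, *Slfn1* 173 and *Il1rn* 865, and Unstim. cells averaged 3.97, 1.24 and 13.7. *Rnf19b* averaged 114 CPM after LPS 24h and was higher at the second LPS (log2 fold change 1.00 ± 0.27, adjusted p = 0.0302), a call lost without LPS 24h culture 2 or 3 or second LPS culture 1 or 2. *Tap1* and *Tma16* varied most between tolerized cultures, with 125, 106 and 345 and 139, 255 and 499.5 CPM.

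The induced genes were also ranked by the log2FC of the second LPS against LPS 24h. *Gem*, a small GTPase, had 0.243, 1.43 and 0.382 CPM after LPS 24h and 14.2, 31.9 and 66.6 after the second LPS (log2 fold change 5.70 ± 0.70, adjusted p = 5.88e-06), and its 18.04, 39.6 and 29.5 CPM after the first LPS overlapped with the latter (log2 fold change 0.37 ± 0.53, adjusted p = 0.643). *Kcna3*, a potassium channel, had 30.1, 14.9 and 5.92, 286, 143 and 257 and 387, 474 and 358 CPM in the same order (log2 fold change 3.76 ± 0.46, adjusted p = 3.18e-06 against LPS 24h, and log2FC -0.83 with adjusted p = 0.137 against the first LPS). *Epha4*, an ephrin receptor, had 4.99, 2.95 and 2.01, 63.5, 30.4 and 59.3 and 26.6, 22.6 and 17.8 CPM, higher at the second LPS than after LPS 24h (log2 fold change 3.96 ± 0.51, adjusted p = 7.67e-06) and just past the threshold against the first LPS (log2 fold change 1.19 ± 0.45, adjusted p = 0.0496). Its second LPS values were above its first LPS values in all cultures, but the call against the first LPS was lost without any 1 library other than second LPS culture 2.

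*Mt2*, a metallothionein, had 62.1, 39.7 and 10.9, 780.4, 825 and 312 and 1657, 1668 and 1482 CPM after LPS 24h, the second and the first LPS, so that it was higher at the second LPS than after LPS 24h (log2 fold change 4.09 ± 0.46, adjusted p = 8.53e-07) and lower than at the first (log2FC -1.33, adjusted p = 0.0179, lost without second LPS culture 3). *Tnfsf15*, *Ccl4* and *Ccl3* completed the 8 with *B3gnt2*, whose values of 2.54, 6.82 and 39.7 CPM at the second LPS varied widely and whose call was lost without any 1 LPS 24h culture or second LPS culture 3. Set side by side, the log2FC against LPS 24h and against the first LPS were 3.84 and -3.54 for *Tnfsf15*, 3.13 and -2.80 for *Nlrp3*, 3.06 and -3.78 for *Il6*, 2.32 and 0.79 for *Clec4e*, and 2.79 and 2.69 for *Ptges*. *Tnfsf15*, *Nlrp3* and *Il6* were lower than at the first LPS, *Clec4e* did not pass the threshold and *Ptges* was higher.

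The same comparison in *Irg1*-/- cells allows a test of whether these differences were particular to WT. Of 11878 genes, 0 (0%) differed between genotypes in the change from first to second LPS under edgeR's test of the difference itself, 859 had an unadjusted p under 0.05, and DESeq2's Wald test called 34. Among genes of the lists, log2FC in WT and *Irg1*-/- cells were -2.63 and -2.01 for *Tnf*, -1.69 and -1.18 for *Il1b*, -6.16 and -5.97 for *Il12b*, 4.16 and 4.83 for *Saa3*, and 2.69 and 3.45 for *Ptges*. *Inhba* had 1.76 and -0.18 (adjusted p = 0.151 for the difference). Larger gaps also stood in some interferon-stimulated genes, such as *Cxcl11* (-3.18 and -5.88) and *Oasl1* (-1.19 and -3.28), with adjusted p = 0.14 and 0.14 for the difference. Nothing described here can therefore be called particular to WT cells, and the absence of calls does not show that the genotypes were alike.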

How the data were processed

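RNA was measured by sequencing of transcript 3' ends with barcoded oligo-dT primers and pooled libraries amplified by PCR, without molecular identifiers. Per the labels and the study's methods, the authors aligned reads to mm10 with STAR and deposited raw read counts per gene and library, and the counting program, annotation and strand setting are not given in the sources used here. Overlapping and antisense genes are therefore not separated with certainty.

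Of 22165 genes in the table, 21822 had a symbol in GENCODE M21, and 5 summary lines that name no gene were left out. Counts were fitted with edgeR 4.0.16 (R 4.3.3; quasi-likelihood test, TMM factors, default expression filter) with 1 term for each of 8 groups of 3 over all 24 libraries, with Benjamini-Hochberg adjustment over the 11878 genes tested. SE and 95% intervals were derived from the fitted log2FC and F statistic. The code was tested on simulated data. Floors are 3 counts per library, and floors and counting intervals (exact binomial) cover counting error only.

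Genes named by rank were called at adjusted p under 0.05, did not overlap between groups and had a mean of at least 10 CPM in the higher group. These were the 15 lowest and 15 highest log2FC and the 8 most abundant in each direction, with 10 retained genes and 8 ranked against LPS 24h, and members of gene lists. The members and lists were chosen with earlier results of these data known. Alternatives were DESeq2 1.42.0 (Wald test and size factors), other filters, samples and terms, TMM without the 20 most abundant genes, and each library left out.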

Additional observations from a re-analysis of the deposited data

How the results depend on the processing

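The direction of each called result was the same under all alternatives run. Genes lower at the second LPS numbered 1557 and, with all 6 compared libraries kept, ranged from 1322 (those libraries alone) to 1862 (DESeq2's Wald test), and induced genes that were lower numbered 886 and ranged from 831 to 962. Genes higher numbered 1471 and fell to 911 with the 6 compared libraries alone, against 1277 with DESeq2's size factors and 1534 with pool as a term. Leaving out 1 library gave 996 to 1356 higher and 1266 to 1425 lower genes, and 51 to 66 higher and 761 to 848 lower induced genes. Induced genes higher at the second LPS than after LPS 24h numbered 204 and ranged from 119 (without LPS 24h culture 2) to 190 when 1 library was left out, and were 161 with the WT libraries alone and 278 by DESeq2's Wald test. Genes whose change differed between genotypes numbered 0, against 34 by DESeq2's Wald test, 68 without a filter on low counts, 1 with pool as a term and 0 to 12 with 1 library left out; the cause was not tested.

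With a replicate block (the culture number within genotype) 1437 genes were higher and 1526 lower, 69 and 888 of the induced genes were higher and lower, 201 induced genes were higher than after LPS 24h, and 0 differed between genotypes. Deviations of same-numbered first and second LPS cultures from their group means had correlations of 0.0893, -0.0504 and 0.00533, against -0.139 to 0.127 for differently numbered ones. With 3 cultures in each group these values cannot decide whether same-numbered cultures were paired. Of 186 called genes among those named or listed, 44 lost the call under at least 1 alternative, and of the 50 called genes chosen by rank, 7 did. Genes with few reads, such as the cell cycle genes at 0, allow bounds only.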
